A study of Mus musculus with 8 samples.

Results

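The LAD is the coronary branch that feeds the front wall of the left ventricle. The left ventricle of C57BL/6 and MRL/MpJ mice was compared with the untreated ventricle on day 60 after LAD ligation. Signals of most collagen, elastic fibre, wound, complement and acute phase genes tested were higher in both strains. Signals of Jchain, Igkv8-30 and Ighm were also higher, as were those of Adipoq, Car3, Scd1 and Fasn among the adipocyte genes, of which 4 of 11 tested were lower. Most genes of fatty acid uptake and oxidation were lower, as were the inducible chaperones Hspa1a and Hspa1b. Tying off this artery infarcts the muscle it supplies. With 2 arrays a side, 3 single genes passed the test, namely Serpina3n, Jchain and Igkv8-30. The comparison took the 2 arrays labelled day 60 after ligation against the 2 arrays of untreated hearts, 4 of the 8 arrays of the series, with strain as a block. C57BL/6 is a common inbred reference strain, and MRL/MpJ is an inbred strain whose punched ears heal with unusually complete regrowth. All mice were males of 2 to 4 months, and the labels name no transgene or deleted gene. The control hearts were untreated and not sham-operated, so effects of surgery and of ligation cannot be told apart, and the labels do not say whether infarct, border or remote muscle was taken. Each strain and time point had 1 array, without a statement on whether it held RNA of 1 animal or of several, so p-values measure the spread between these arrays only.

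Signal intensity from MAS5, on a linear scale with near equal trimmed means, was compared as log2 of the signal plus 28.6. Of 12393 genes on the array, 8195 reached a signal of 121 in at least 2 of the 8 arrays and were tested. Trimmed mean signals lay between 247.2 and 248.4, and median signals between 112.8 and 139.5. Across genes, log2 values of pairs among the 4 arrays compared correlated at r between 0.891 and 0.948; pairs with the C57BL/6 day 30 array had the lowest r of the series, 0.844 to 0.877. Genes are not independent replicates. Ventricular markers were high in all 4 arrays: the listed ventricular sarcomere genes had a summed signal of 242316 (C57BL/6) and 275102 (MRL/MpJ) untreated, and of 279337 and 247292 on day 60. The atrial genes Sln and Myl7 differed widely between arrays, as described with the stress genes.

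A ventricle that has lost muscle to an infarct replaces it with a collagen scar. Fibroblasts lay down fibrillar collagens and matricellular proteins, which are secreted proteins that steer cells and assemble matrix rather than bear load. Macrophages clear debris, plasma cells secrete antibody, and surviving heart muscle cells switch on natriuretic peptides and fetal sarcomere genes while lowering the genes that burn fatty acids. These are textbook features of infarct healing, given here as background.

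Of the 8195 genes, 5332 (65.1%) had the same direction in both strains: 2186 (26.7%) were higher on day 60 and 3146 (38.4%) lower. At least 2-fold differences were fewer and went mostly upwards, with 151 genes (1.84%) higher and 31 (0.378%) lower in both strains. Both day 60 signals lay above both untreated signals in 20.7% of genes and below them in 29.9%. A total of 53 gene lists, with 1356 genes of which 1190 were on the array and 981 were tested, serves to group the genes below. All lists were made with earlier results of these data known, so their counts and medians are descriptions. The limma test called 3 genes (0.0366%) at an adjusted p under 0.05, all higher: Serpina3n, Jchain and Igkv8-30. At an unadjusted p under 0.05 it gave 867 genes, of which 505 were higher. Among 32 genes with an adjusted p under 0.1, 31 were higher. Leaving out either untreated array or either day 60 array gave 0 calls (407 to 559 genes at an unadjusted p under 0.05), leaving out either day 3 array 30 calls and leaving out either day 30 array 12.

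In what follows, pairs of values give C57BL/6 first and MRL/MpJ second; signals are in the deposited linear units, and values called log2 are differences of day 60 minus untreated on the offset scale. Since the 2-fold sets were chosen by their difference, their values are descriptions. Counts of list members higher or lower in both strains stand beside 26.7% and 38.4% of all genes. Of the 151 higher genes, 140 also reached the signal filter without the day 60 arrays and 11 only with them; 110 had a day 60 signal over 250 in both strains. The lower set was dimmer: 17 of 31 had untreated signals under 250 in both strains. Just inside the limit of 1 on the log2 scale lay Plxdc2 (1.004 in the strain with the smaller difference), Igfbp4 (1.005) and Rtkn (1.012). Just outside lay Ptprc (0.995), Mxra8 (0.984) and Ackr4 (0.983). In single strains, 298 genes were at least 2-fold higher and 173 lower in C57BL/6, against 374 and 234 in MRL/MpJ, with 1 array on each side and no test. There were 17 genes that differed at least 2-fold in opposite directions. Across genes the differences of both strains correlated at r = 0.485, a description over 8195 points that share arrays and scaling.

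**Figure D1:**
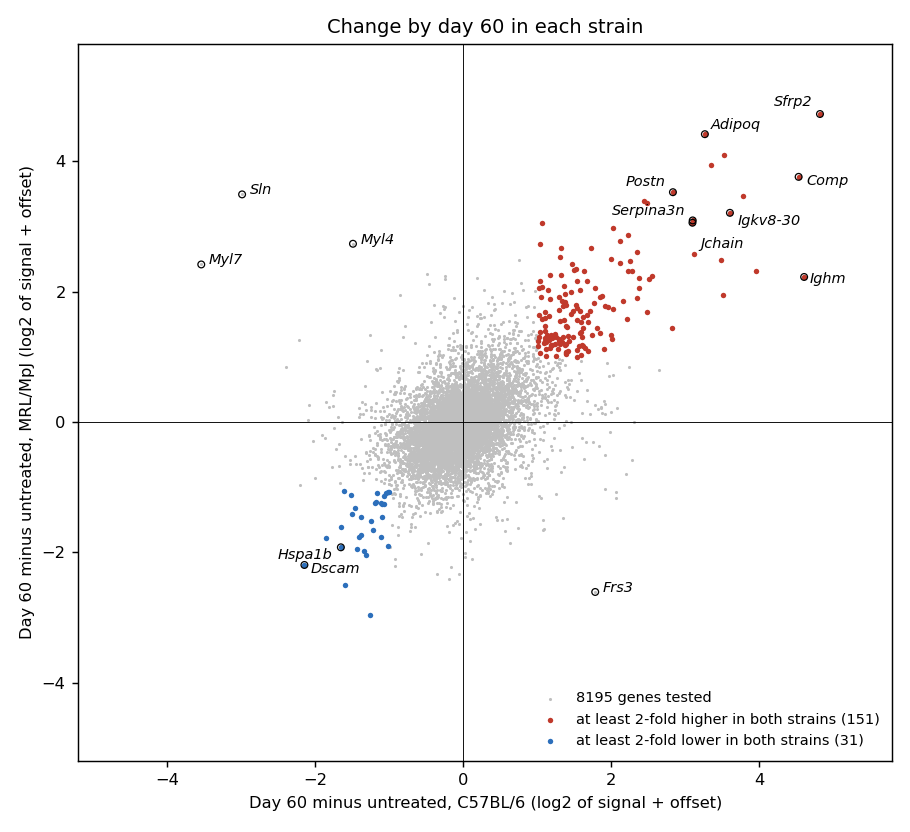
Log2 difference of day 60 minus untreated (signal plus offset) in C57BL/6 on the x axis and in MRL/MpJ on the y axis, 1 point per gene, with 1 array on each side of every difference. The 151 genes at least 2-fold higher in both strains (red) reach 4.82 and 4.73 at Sfrp2, the 31 lower ones (blue) go down to -2.96 at Fbp2 in MRL/MpJ, and the atrial genes Sln, Myl7 and Myl4 lie in the upper left quadrant.

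Serpina3n, a secreted serine protease inhibitor of the acute phase response, rose in both strains to nearly the same level. Its signal was 31.1 in C57BL/6 and 34.8 in MRL/MpJ untreated and 482 and 499 on day 60, a log2 difference of 3.08 (SE 0.27, limma adjusted p = 0.0209). On day 3 it was already 237 and 319, and on day 30 it was 434 and 755. Every ligated array was therefore far above both untreated arrays, and the day 60 signals lay within the range of day 30. Jchain, the joining chain that links IgM and IgA into polymers, rose from 48 and 41.5 to 629 and 569, a log2 difference of 3.10 (SE 0.29, limma adjusted p = 0.0209). It had been 149.7 and 100.1 on day 3 and 134 and 49.6 on day 30, so both day 60 arrays stood above all others. Igkv8-30, a variable segment of the immunoglobulin kappa light chain, rose from 33 and 42.2 to 720.4 and 626, by 3.41 (SE 0.32, limma adjusted p = 0.0209). Its earlier signals were 144 and 75 on day 3 and 290 and 140.1 on day 30. The Igkv8-30 probe set is of a type (suffix x_at) that can bind related kappa segments, so the segment itself is uncertain. Each of the 3 had the same direction under 19 of 19 alternatives and was called under 14 (Serpina3n), 13 (Jchain) and 13 (Igkv8-30) of them. No other member of a gene list described below passed the test on day 60.

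The 250 bases upstream of the start site of both called genes with an entry are shown because these genes passed the test (RefSeq, GRCm38.p6, 5′ to 3′ on the gene's strand, lower case, motif matches in capitals). Serpina3n lies at chr12:104406458-104406707 on the plus strand and Jchain at chr5:88527898-88528147 on the minus strand.
Serpina3n: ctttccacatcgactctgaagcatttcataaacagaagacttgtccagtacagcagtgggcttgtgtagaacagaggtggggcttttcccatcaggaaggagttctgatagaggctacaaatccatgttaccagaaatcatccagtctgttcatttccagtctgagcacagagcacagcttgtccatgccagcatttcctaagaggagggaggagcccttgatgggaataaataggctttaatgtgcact
Jchain: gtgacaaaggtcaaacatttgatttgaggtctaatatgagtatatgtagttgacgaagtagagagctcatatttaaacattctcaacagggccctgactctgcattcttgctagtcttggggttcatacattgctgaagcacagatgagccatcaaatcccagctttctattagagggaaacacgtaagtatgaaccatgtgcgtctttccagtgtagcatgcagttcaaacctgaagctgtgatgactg
Both strands were searched for the heat shock element GAANNTTC (present in 6.69% of 32851 promoter windows of this length), its tail-to-tail form TTCNNGAA (7.17%), the STAT site TTCNNNGAA (7.02%), the octamer ATGCAAAT (1.6%), the E-box CACGTG (6.02%), TATAAA (12.4%) and CCAAT (33.8%). These letters did not occur in either window, which says nothing on the factors themselves. Igkv8-30 is named only.

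Other immunoglobulin genes were higher along with Jchain, while B cell surface genes were near their untreated level. Ighm, the heavy chain of IgM, had signals of 178 and 191 untreated and 4997 and 996 on day 60, a log2 difference of 3.42 (SE 0.53, limma adjusted p = 0.084). Both day 60 arrays were above both untreated arrays. In this probe set the difference was larger in C57BL/6 (4.61) than in MRL/MpJ (2.22), which was not tested. The array holds 10 further Ighm probe sets: 6 of the 7 that reached the filter signal were also higher in both strains. The order of the strains changed with the probe set. Some further probe sets differed more in MRL/MpJ (0.87 and 2.50, 0.50 and 3.24 in log2) and others more in C57BL/6 (3.40 and 1.82). Iglv1, a lambda light chain segment, had 5.1 and 15.8 untreated and 356 and 142 on day 60; it reached the filter signal only with the day 60 arrays, and its other probe set was not higher in both strains. Igkv14-111, a further kappa segment named after its values were seen, had 36.5 and 6.9 untreated and 139 and 76.7 on day 60. Against these, Ms4a1 (CD20) had 137 and 80 untreated and 122 and 85.4 on day 60 and Cd79a, a part of the B cell receptor, 116 and 140 untreated and 144 and 91 on day 60. Over the list of B cell and immunoglobulin genes, 9 of 17 were tested, 5 were higher in both strains and 0 lower, with a median log2 difference of 0.15 (0.25 in C57BL/6, 0.23 in MRL/MpJ) against -0.06 over all genes. Sdc1 and Xbp1, which plasma cells express along with other cells, differed by 0.32 in log2 (adjusted p = 0.699, limma) and 0.15 (adjusted p = 0.865). In bulk tissue, more cells of a type and more RNA per cell cannot be told apart, here and in every group below.

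The secreted matrix and wound genes held the highest values. Sfrp2, a secreted Frizzled-related protein that binds Wnt ligands, had the largest difference common to both strains. Its signal was 46.8 in C57BL/6 and 51.3 in MRL/MpJ untreated and 2102 and 2085 on day 60, a log2 difference of 4.77 (SE 0.62, limma adjusted p = 0.0614). Sfrp2 was also high on day 3 (894 and 3143) and day 30 (1708 and 629.7). Comp, a thrombospondin-family protein that binds collagen fibrils, had 94.3 and 109.7 untreated and 2815 and 1846 on day 60 (log2 difference 4.15, SE 0.57, limma adjusted p = 0.0614), with 342 and 857 on day 3 and 1774 and 576 on day 30. Its day 60 signals were the highest of each strain. Mfap4, a glycoprotein of elastic microfibrils, had 12.7 and 11.4 untreated and 447 and 653 on day 60. On day 30 Mfap4 was 502 in C57BL/6 but 39.7 in MRL/MpJ, a spread between strains that goes with an SE of 1.12 and an adjusted p of 0.294 in limma for a log2 difference of 3.81. Postn, periostin of activated fibroblasts, had 519 and 259 untreated and 3877 and 3285 on day 60 (log2 difference 3.18, SE 0.60, limma adjusted p = 0.119). Thbs4 had 52.1 and 72 untreated and 871 and 536 on day 60 and Itgbl1, an integrin beta-like secreted protein, 75.1 and 72 untreated and 538 and 1027 on day 60; neither pair of groups overlapped. Ecrg4, a secreted peptide precursor, had 8.2 and 28 untreated and 478 and 595 on day 60, and Ptn, the heparin-binding growth factor pleiotrophin, 10 and 16.8 untreated and 308 and 241 on day 60. None of the 8 genes had overlapping groups, and among the 151 genes at least 2-fold higher in both strains 0 had. The separation thus goes with how the genes were chosen and adds no support.

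**Figure D2:**
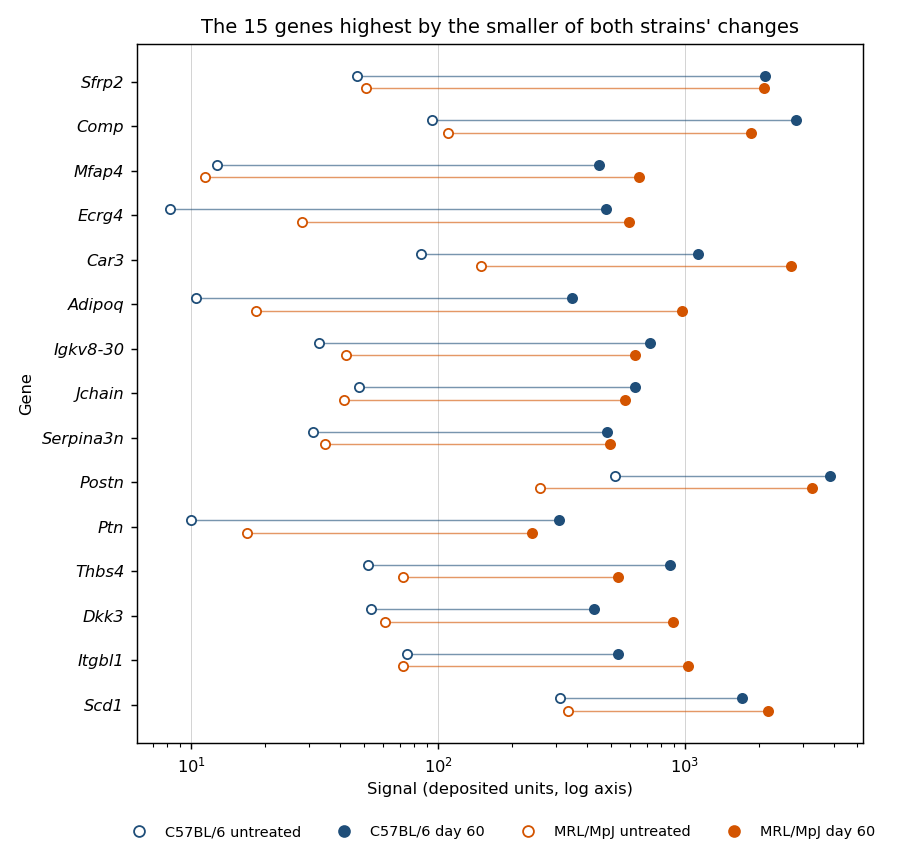
Signals (log axis, deposited units) of the 15 genes with the largest difference common to both strains, open circles untreated and filled circles day 60, blue C57BL/6 and orange MRL/MpJ, 1 array per circle. Every filled circle lies to the right of both open circles of its gene; untreated signals run from 8.2 (Ecrg4) to 519 (Postn).

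As a group, 18 of 22 listed matricellular and wound genes were tested and 18 of 18 were higher in both strains, 14 of them at least 2-fold, beside 26.7% and 1.84% of all genes. Their median log2 difference was 1.90 (1.58 in C57BL/6, 2.26 in MRL/MpJ). Members were known to be wound genes when the list was made and earlier results of these data were in view, so the count is a description. Fn1, fibronectin, had 558 and 442 untreated and 2705 and 2327 on day 60 (log2 difference 2.27, SE 0.31, limma adjusted p = 0.0614). Ccn2, the connective tissue growth factor, had 647 and 713 untreated and 3143 and 5381 on day 60 (log2 difference 2.55, SE 0.40, limma adjusted p = 0.0843). Tnc, tenascin C, is a marker of early wounds: it had 26.2 and 26.2 untreated, 142 and 379 on day 3 and 100.4 and 96.9 on day 60. Smoc2 was nearly level, at 0.04 and 0.11 on the log2 scale. Over the arrays of days 30 and 3, the list's median day 60 difference was 0.58 from day 30 and 0.65 from day 3.

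Col1a1 and Col3a1, of the fibrillar collagens, were higher but below their day 3 signals. Col1a1 had 646 and 486 untreated and 1713 and 2151 on day 60, against 3516 and 7072 on day 3 and 2587 and 3103 on day 30, and a log2 difference from untreated of 1.73 (SE 0.34, limma adjusted p = 0.123). Col3a1 had 1858 and 2677 untreated and 5608 and 6942 on day 60, against 8957 and 16636 on day 3 (log2 difference 1.47, SE 0.26, limma adjusted p = 0.112). Both day 60 arrays were above both untreated arrays and below both day 3 arrays for either gene. Of 19 collagens tested, 13 were higher in both strains, 3 lower and 3 opposite, with a median log2 difference of 0.85 (0.71 in C57BL/6, 0.95 in MRL/MpJ); leaving out 1 array gave 0.50 to 1.17. The lower ones, in log2, were Col4a1 (-0.43 and -0.01), a basement membrane collagen, Col5a3 (-0.40 and -0.44) and Col9a1 (-0.29 and -1.31). Another Col9a1 probe set that reached the filter signal went in opposite directions (-0.23 and 0.38). So did another of Col5a3, below the filter signal (0.02 and -0.40). Genes that process collagen had a median log2 difference of 0.60 (0.37 in C57BL/6, 0.64 in MRL/MpJ), and 9 of 15 were higher in both strains; leaving out 1 array gave 0.32 to 0.76. Among these, Lox, the collagen and elastin cross-linking enzyme, had 195 and 129 untreated and 400.3 and 426 on day 60. The hydroxylases P4ha1, P4ha2, Plod2 and Plod3 differed in opposite directions between strains. Another Plod2 probe set that reached the filter signal was higher in both strains, by 0.84 and 1.25 in log2. The chaperone Serpinh1 had log2 differences of -0.73 and -0.0006. Proteoglycans had a median log2 difference of 0.83 (0.63 in C57BL/6, 0.94 in MRL/MpJ), with 13 of 15 higher in both strains, led by Fmod, fibromodulin, at 135 and 60.2 untreated and 751 and 461 on day 60. Hspg2 (perlecan) and Gpc1 were the 2 lower ones.

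Elastic fibre genes were higher in both strains in 13 of 13 tested, and 8 reached 2-fold; the median log2 difference was 1.24 (1.17 in C57BL/6, 1.36 in MRL/MpJ). Eln, elastin, had 324 and 292 untreated and 1035 and 625 on day 60 (log2 difference 1.31, SE 0.36, limma adjusted p = 0.263), against 2208 and 1943 on day 3. Fibroblast markers were higher in 17 of 17, beside 26.7% of all genes, with a median log2 difference of 1.26 (1.10 in C57BL/6, 1.21 in MRL/MpJ). The groups did not overlap for 17, beside 20.7% of all genes with both day 60 signals higher. The elastic fibre and fibroblast lists too were made with earlier results of these data in view, so these counts are descriptions. Pi16 marks a resting adventitial type of fibroblast and had 455 and 341 untreated and 1557 and 1179.6 on day 60 (log2 difference 1.71, SE 0.33, limma adjusted p = 0.123). Dpt, dermatopontin, had 995 and 1358 untreated and 3903 and 2565 on day 60. The lists of matrix, elastic fibre and fibroblast genes share members such as Mfap5, Loxl1 and Col1a1, so their medians are not separate measurements. Smooth muscle and myofibroblast genes did not follow: 7 of 18 were higher and 4 lower in both strains, with a median log2 difference of 0.19 (-0.01 in C57BL/6, 0.33 in MRL/MpJ). Acta2, the actin of myofibroblasts, had 1508 and 907 untreated and 1618 and 2041 on day 60. Cnn1 had 32 and 28.8 untreated and 22 and 162 on day 60, higher in MRL/MpJ and not in C57BL/6. Proteases and their inhibitors had a median log2 difference of 0.62 (0.51 in C57BL/6, 0.61 in MRL/MpJ), with 17 of 24 higher, among them Timp1, an inhibitor of metalloproteinases, at 131 and 75.4 untreated and 365 and 572 on day 60. Basement membrane and integrin genes had a median log2 difference of 0.12 (0.10 in C57BL/6, 0.16 in MRL/MpJ).

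Components of the first complement steps were higher on day 60. C1s1, a protease of the C1 complex, had 104 and 85.4 untreated and 551 and 588 on day 60, against 165 and 261 on day 30 (log2 difference 2.28, SE 0.27, limma adjusted p = 0.0505). C1ra, its partner protease, had 104 and 146 untreated and 489 and 562 on day 60 (log2 difference 1.86, SE 0.29, limma adjusted p = 0.084), and Serping1, the inhibitor of both, 903 and 719.8 untreated and 3406 and 2836 on day 60 (log2 difference 1.91, SE 0.29, limma adjusted p = 0.084). Hp, haptoglobin, had 13.5 and 29.3 untreated and 139 and 300 on day 60. Both day 60 signals were above both untreated signals in each of these 4 genes, beside 20.7% of all genes. The acute phase gene Saa3 was 159 and 118 untreated and 101 and 64.9 on day 60, lower in both strains. Over the list, 12 of 16 tested genes were higher, 1 lower and 1 passed the test (Serpina3n), with a median log2 difference of 0.74 (0.45 in C57BL/6, 1.03 in MRL/MpJ). Macrophage and monocyte genes were higher in 22 of 29 and lower in 0, with a median log2 difference of 0.70 (0.40 in C57BL/6, 1.01 in MRL/MpJ) and a range of 0.42 to 1.01 when 1 array was left out. Lgals3, galectin 3 of macrophages and fibroblasts, had 66.8 and 64 untreated and 436 and 432 on day 60 (log2 difference 2.30, SE 0.42, limma adjusted p = 0.116), and Gpnmb, a gene of lipid-laden macrophages, 12.2 and 15.1 untreated and 138 and 117 on day 60. Adgre1, the F4/80 antigen, had 422 and 234 untreated and 566 and 543 on day 60, and Cd68 181 and 166 untreated and 309 and 323 on day 60. Both groups of arrays stayed apart for these 4 genes, beside 20.7% of all genes with both day 60 signals higher, and none passed the test.

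Other inflammatory lists had smaller medians. Chemokines, cytokines and their receptors had a median log2 difference of 0.17 (0.14 in C57BL/6, 0.25 in MRL/MpJ), led by Ccl8, a monocyte chemokine, at 325 and 251 untreated and 1053 and 731 on day 60. Tnf was at 84.4 and 162 untreated and 28.3 and 21.5 on day 60, and its day 60 signals were below the offset of 28.6. Interferon-stimulated genes had a median log2 difference of 0.15 (0.11 in C57BL/6, 0.09 in MRL/MpJ), with 10 of 25 higher and 5 lower. MHC genes had a median log2 difference of 0.37 (0.24 in C57BL/6, 0.47 in MRL/MpJ), with 10 of 15 higher; the class II gene H2-Aa had a log2 difference of -0.12 in C57BL/6 and 1.90 in MRL/MpJ. T and NK cell markers had 3 of 21 genes tested and neutrophil and mast cell markers 9 of 18; 0 and 0 of these were 2-fold higher in both strains.

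**Figure D3:**
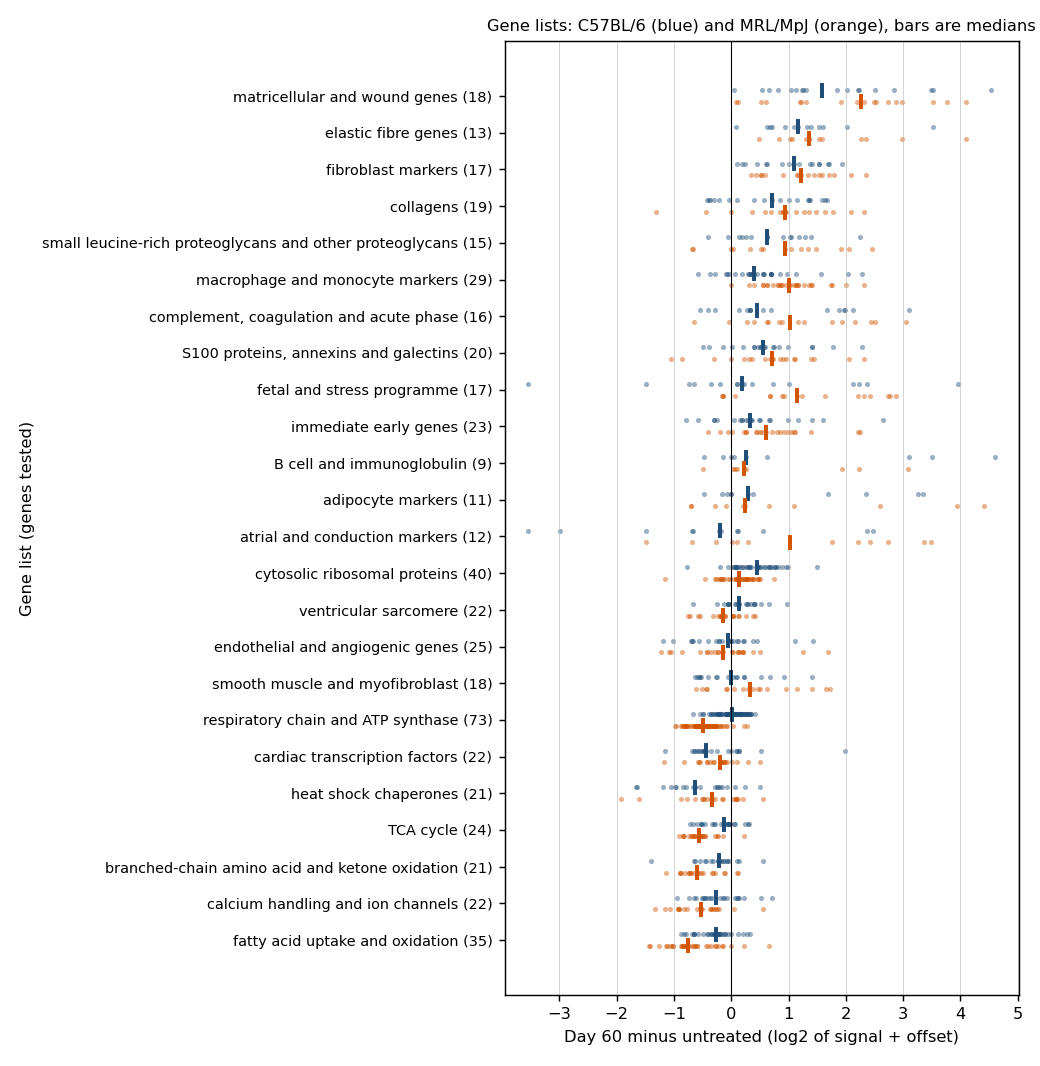
Log2 difference of day 60 minus untreated (signal plus offset, x axis) for the tested genes of 24 lists (y axis, number of genes in brackets); dots are genes, bars are medians, blue is C57BL/6 and orange MRL/MpJ. Medians are 1.58 and 2.26 for matricellular genes and -0.27 and -0.76 for fatty acid genes (C57BL/6 first). In the immunoglobulin and adipocyte lists a few genes stand far from medians near 0.

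Nppa, Nppb and Myh7 were higher in both strains, while atrial markers differed between single arrays. Nppa, the atrial natriuretic peptide that stressed ventricles also make, had 3455 and 5781 untreated and 17996 and 26763 on day 60 (log2 difference 2.29, SE 0.52, limma adjusted p = 0.181). Nppb, the brain type peptide, had 7501 and 3704 untreated and 8563 and 11539.6 on day 60 (log2 difference 0.91, SE 0.53, limma adjusted p = 0.598). Myh7, the slow myosin heavy chain of the fetal ventricle, had 339 and 1011 untreated and 5679.5 and 5148 on day 60, while Myh6, the adult mouse isoform, had 13965 and 20829 untreated and 18315 and 12351 on day 60. The Myh7 difference was 3.14 (SE 0.63, limma adjusted p = 0.126). Of 17 fetal and stress genes, 11 were higher and 3 lower in both strains, with a median log2 difference of 0.62 (0.19 in C57BL/6, 1.14 in MRL/MpJ) and 0.14 to 1.06 when 1 array was left out. Acta1, the skeletal actin of the fetal heart, was 7377 and 8451 untreated and 4698 and 8846 on day 60. Atrial Sln (sarcolipin) had 251 and 235 untreated, 858 and 6.1 on day 3, 3078 and 3254 on day 30 and 6.7 and 2932 on day 60. Myl7, the atrial regulatory light chain, had 442 and 532, 1078 and 97.6, 3372 and 3899 and 11.9 and 2967 on the same arrays. Both were lowest in C57BL/6 on day 60 and MRL/MpJ on day 3, and high in MRL/MpJ on day 60. Over the 12 atrial and conduction genes tested, 4 were higher in both strains, 2 lower and 6 opposite, and the list's summed signal was 6666 and 10208 untreated and 20348 and 44913 on day 60, mostly Nppa. In C57BL/6 on day 60, Nppa and Myh7 were high while Sln was 6.7 and Myl7 11.9. The part of atrial tissue in the day 60 signals of Nppa, Nppb and Dkk3 was not tested in either strain.

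**Figure D4:**
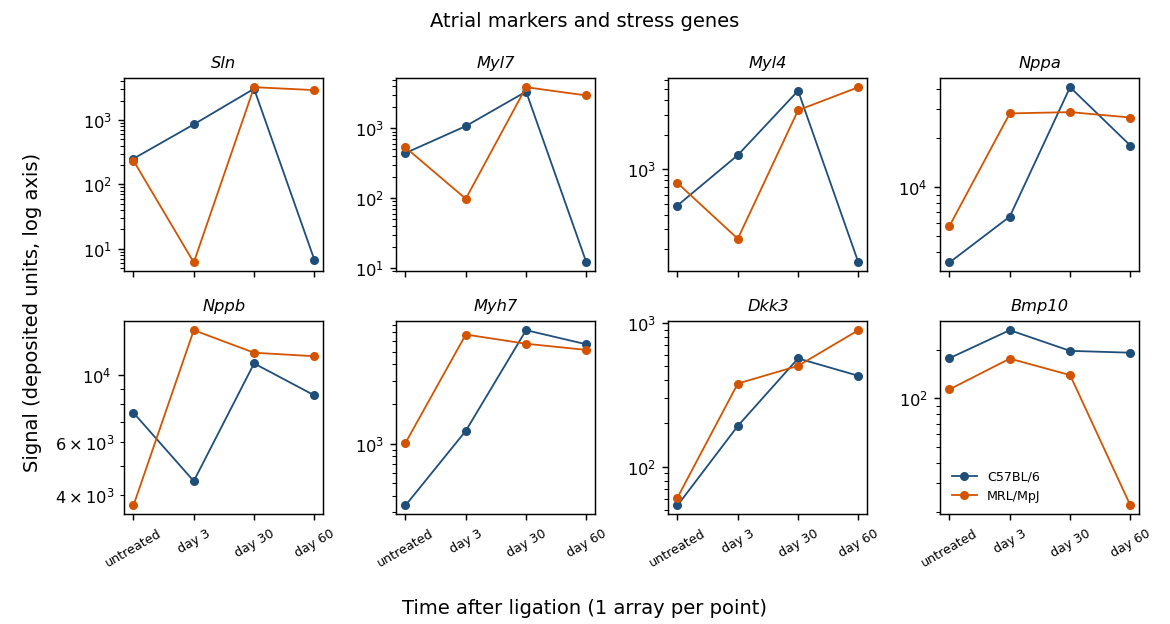
Signals (log axis, deposited units) of 8 atrial and stress genes over the time points (x axis), 1 array per point, blue C57BL/6 and orange MRL/MpJ; lines join different hearts of 1 strain. Sln and Myl7 stand at 6.7 and 11.9 in C57BL/6 on day 60, where Nppa is 17996 and Myh7 5679.5.

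Ventricular sarcomere genes had a median near 0, while most genes of calcium handling and ion channels, fatty acid oxidation and the TCA cycle were lower. Ventricular sarcomere genes had a median log2 difference of -0.01 (0.14 in C57BL/6, -0.15 in MRL/MpJ); 5 of 22 were higher in both strains and 4 lower. Calcium handling and ion channel genes had a median log2 difference of -0.51 (-0.27 in C57BL/6, -0.53 in MRL/MpJ), and 14 of 22 were lower, against 38.4% of all genes; leaving out 1 array moved the median to -0.56 to -0.26. Kcnq1, a repolarising potassium channel, had 357 and 516 untreated and 278 and 187 on day 60 (log2 difference -0.83, SE 0.29, limma adjusted p = 0.384), and Ryr2, the calcium release channel, 2714 and 4229 untreated and 2359.9 and 1883 on day 60. Atp2a2, the calcium pump SERCA2, had 22772 and 23986 untreated and 24592 and 20256 on day 60, with overlapping groups. Its other probe sets were lower in both strains, at -0.26 and -0.24, -1.09 and -0.81, and -0.09 and -0.39 in log2. Slc8a1, the sodium-calcium exchanger, was the 1 gene of the list higher in both strains, at 246 and 262 untreated and 421 and 400.3 on day 60. Cardiac transcription factors were higher in 0 and lower in 12 of 22, with a median log2 difference of -0.28 (-0.45 in C57BL/6, -0.20 in MRL/MpJ). Gata6 had log2 differences of -0.50 and -0.83, and Hopx, a homeodomain-only protein, -0.63 and -1.17.

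Fatty acid uptake and oxidation was the list with the lowest median among those with over 10 tested genes. Its median log2 difference was -0.54 (-0.27 in C57BL/6, -0.76 in MRL/MpJ), 30 of 35 genes were lower in both strains, and both day 60 signals lay below both untreated signals in 26 (29.9% of all genes). No member reached 2-fold in both strains or passed the test. Mlycd, malonyl-CoA decarboxylase, had 725 and 697 untreated and 384 and 239 on day 60 (log2 difference -1.16, SE 0.26, limma adjusted p = 0.163). Cpt2, the inner carnitine palmitoyltransferase, had 1964 and 1724 untreated and 1211 and 629 on day 60, and Acaa2, the mitochondrial thiolase, 6249 and 7754 untreated and 4724 and 3235 on day 60. Cpt1a, the liver form of the outer transferase, was the 1 gene higher in both, at 393 and 333 untreated and 484 and 544 on day 60. The difference was larger in MRL/MpJ in these medians, without a test; leaving out 1 array gave -0.69 to -0.28. The TCA cycle had a median log2 difference of -0.41 (-0.13 in C57BL/6, -0.56 in MRL/MpJ), with 19 of 24 lower (-0.53 to -0.21 with 1 array left out), and the breakdown of branched-chain amino acids and ketones -0.46 (-0.22 in C57BL/6, -0.60 in MRL/MpJ), with 17 of 21 lower (-0.59 to -0.29 with 1 array left out). In respiratory chain genes the median log2 difference was -0.24 (0.02 in C57BL/6, -0.50 in MRL/MpJ), its sign differed between the strains (not tested), 38 of 73 genes went in opposite directions, and leaving out 1 array gave -0.45 to -0.03. Creatine and energy transfer genes had a median log2 difference of -0.33 (-0.29 in C57BL/6, -0.40 in MRL/MpJ), led by Ak1, an adenylate kinase, at 3682 and 3683 untreated and 1872 and 1695 on day 60, although its other probe set differed by 0.38 and -0.13 in log2. Glycolysis had a median log2 difference of -0.03 (-0.10 in C57BL/6, -0.16 in MRL/MpJ). Ldhb, the heart form of lactate dehydrogenase, had 12862 and 9697 untreated and 6519.9 and 5250.4 on day 60 (log2 difference -0.93, SE 0.28, limma adjusted p = 0.294). A lower share of muscle cells and less RNA per muscle cell cannot be told apart here.

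Some fat cell genes were among the highest of the comparison, and others of the same list were level or lower. Adipoq, the hormone adiponectin, had 10.5 and 18.3 untreated and 347 and 972 on day 60; it reached the filter signal only with the day 60 arrays. Its signals were 63.5 and 63.6 on day 3 and 49.2 and 361 on day 30. Both untreated signals lay below the offset, so the log2 difference of 3.84 understates the ratio. Car3, a carbonic anhydrase abundant in fat and slow muscle, had 85.2 and 149.6 untreated, 253 and 132 on day 3, 428 and 1022 on day 30 and 1130.4 and 2702 on day 60 (log2 difference 3.64, SE 0.48, limma adjusted p = 0.0614). Scd1, stearoyl-CoA desaturase, had 312 and 335 untreated and 1708 and 2178 on day 60 (log2 difference 2.48, SE 0.29, limma adjusted p = 0.0505), and Fasn, fatty acid synthase, 94.2 and 138 untreated and 366 and 328 on day 60. For Adipoq, Car3 and Scd1 both day 60 signals were the highest of their strain. Fabp4, a lipid carrier of fat cells and capillary endothelium, had 4957 and 5841 untreated and 6448 and 6726 on day 60, and Plin4, a coat protein of lipid droplets, 1467 and 2051 untreated and 1392 and 1254 on day 60. Lpl had 19840.5 and 19666 untreated and 19813 and 16075 on day 60 and Retn, resistin, 223 and 197 untreated and 279 and 330.2 on day 60. These 4 genes differed by less than 2-fold in both strains. Of 11 tested genes of 18 listed, 6 were higher in both strains, 4 of these at least 2-fold, and 4 were lower, with a median log2 difference of 0.29 (0.29 in C57BL/6, 0.24 in MRL/MpJ). The summed signal of the list, dominated by Lpl, was 30623 and 32282 untreated and 34421 and 33670.5 on day 60. Whether fat tissue on the samples had a part in these values was not tested.

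**Figure D5:**
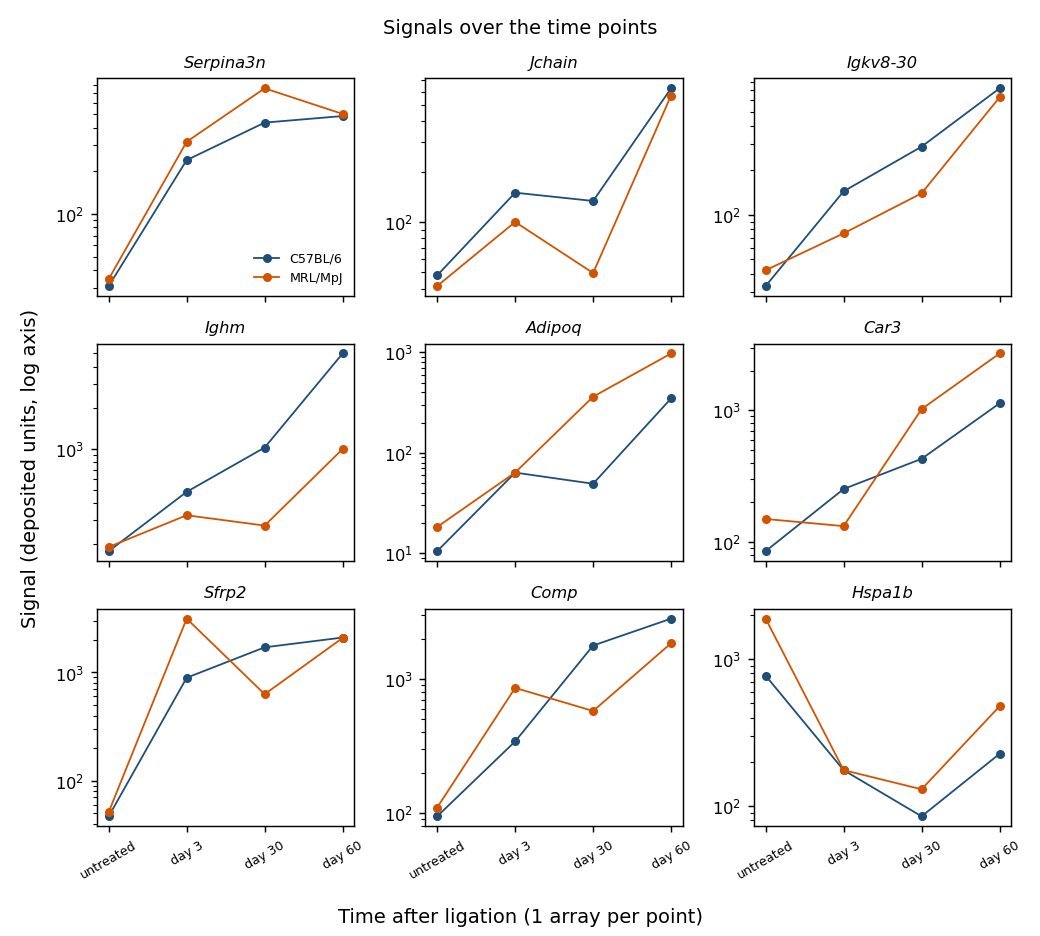
Signals (log axis, deposited units) of 9 genes over the time points (x axis), 1 array per point, blue C57BL/6 and orange MRL/MpJ; lines join different hearts of 1 strain. Jchain, Igkv8-30, Ighm, Adipoq and Car3 are highest on day 60 in both strains, Serpina3n and Sfrp2 are already high on day 3, and Hspa1b is highest untreated.

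Inducible chaperones were lower on day 60. Hspa1b, a stress-induced HSP70, had 773 in C57BL/6 and 1894 in MRL/MpJ untreated, 175 and 175 on day 3, 84.8 and 129.7 on day 30 and 226 and 478 on day 60 (log2 difference -1.79, SE 0.33, limma adjusted p = 0.118). Hspa1a, its neighbouring copy, had 323 and 770.5 untreated and 83 and 234 on day 60. All 6 ligated arrays were below their own strain's untreated array for both genes. The genes are near-identical, and probes for one can bind RNA of the other, so they count as 1 observation. Their promoters are shown because both genes were lower together (RefSeq, GRCm38.p6, minus strand, 250 bases to the start site, GAANNTTC and the reverse complement of CCAAT in capitals). Hspa1a lies at chr17:34972157-34972406 and Hspa1b at chr17:34959239-34959488.
Hspa1a: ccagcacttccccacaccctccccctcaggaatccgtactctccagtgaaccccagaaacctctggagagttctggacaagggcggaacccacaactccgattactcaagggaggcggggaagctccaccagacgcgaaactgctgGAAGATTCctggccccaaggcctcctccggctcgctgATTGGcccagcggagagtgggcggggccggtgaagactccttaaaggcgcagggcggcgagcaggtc
Hspa1b: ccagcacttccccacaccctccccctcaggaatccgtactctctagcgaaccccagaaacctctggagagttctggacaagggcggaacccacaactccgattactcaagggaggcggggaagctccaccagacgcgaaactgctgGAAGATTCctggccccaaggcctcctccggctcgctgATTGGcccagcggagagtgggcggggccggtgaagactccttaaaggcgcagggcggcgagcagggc
The windows share 247 of 250 bases, and each holds 1 GAANNTTC, whose first base is at -104 from the start site, and 1 CCAAT at -67. Over the heat shock list, 13 of 21 genes were lower in both strains and 2 higher, with a median log2 difference of -0.39 (-0.63 in C57BL/6, -0.33 in MRL/MpJ) and -0.60 to -0.15 when 1 array was left out. Hsph1 (HSP105) had 730.2 and 806 untreated and 338 and 428 on day 60 and Dnaja1, an HSP40, 827 and 1008 untreated and 447 and 579 on day 60. The list's median log2 value stood at -0.47 on day 3 and -0.47 on day 30 against the same untreated arrays. Immediate early genes, transcription factors and regulators that respond within minutes to stimuli, were higher in 17 of 23, with a median log2 difference of 0.53 (0.32 in C57BL/6, 0.60 in MRL/MpJ) and 0.32 to 0.59 when 1 array was left out. Ier3 had 297 and 295 untreated and 957 and 818 on day 60 (log2 difference 1.49, SE 0.28, limma adjusted p = 0.119) and Egr1 135 and 237 untreated and 999 and 430.4 on day 60. The clock output gene Dbp had 220.1 and 342 untreated and 899 and 773 on day 60 and Arntl (BMAL1), an activator of the clock, 208 and 195 untreated and 63.7 and 91.5 on day 60. The hour of harvest is not given in the sources used here.

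Vegfa and Vegfb were lower, and endothelial genes went both ways. Vegfa, the main growth factor of blood vessels, had 1152 and 813 untreated and 491 and 331 on day 60 (log2 difference -1.21, SE 0.29, limma adjusted p = 0.201), and Vegfb 2819.6 and 2112 untreated and 1381 and 984 on day 60 (log2 difference -1.05, SE 0.28, limma adjusted p = 0.246). Their groups did not overlap in either case, beside 29.9% of all genes with both day 60 signals lower. Plvap, of fenestrated and activated endothelium, had 45.8 and 85.1 untreated and 172 and 241 on day 60, and Vwf, the von Willebrand factor, 140.3 and 174 untreated and 335 and 621 on day 60; both were at least 2-fold higher in both strains. Flt1, a Vegfa receptor, had log2 differences of -0.67 and -0.85, and Cdh5, the endothelial cadherin, -0.71 and -0.55. Another Cdh5 probe set that reached the filter signal went in opposite directions (-0.62 and 0.49 in log2). Another Flt1 probe set that reached the filter signal did so too (-0.24 and 0.16), while a further Flt1 probe set was lower in both strains. Over the list 6 of 25 were higher in both strains and 10 lower, near the shares of all genes (26.7% and 38.4%). The list's median log2 difference was -0.03 (-0.06 in C57BL/6, -0.14 in MRL/MpJ). Kdr, the main receptor of Vegfa, had log2 differences of -0.40 and -0.43, and Pecam1, a marker of all endothelium, 0.23 and 0.21.

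In the Wnt list, 4 genes were at least 2-fold higher in both strains: Sfrp2, Dkk3, Ccn5 and Frzb. Dkk3, a Dickkopf-related protein, had 53.7 and 60.9 untreated and 429.8 and 894 on day 60 (log2 difference 2.92, SE 0.34, limma adjusted p = 0.0505), and Frzb, a Frizzled-related protein, 96.7 and 202 untreated and 335 and 649.9 on day 60. Ccn5, a secreted CCN protein that Wnt signalling induces, had 117 and 181 untreated and 799.6 and 936 on day 60 (log2 difference 2.35, SE 0.44, limma adjusted p = 0.118). Dkk3 is also listed as an atrial gene: in C57BL/6 on day 60 it was 429.8 while Sln was 6.7. Whether atrial tissue had a part in the Dkk3 signals was not tested. Sfrp5 went the other way at 95.3 and 111 untreated and 23.4 and 20.3 on day 60, with day 60 signals below the offset. Among Frizzled receptors, Fzd2 had log2 differences of 0.22 and 0.25, and its 2 other probe sets were higher in both strains too. Fzd4 had 0.32 and 0.43 and Fzd6 0.54 and 0.17 in log2, but a further probe set of each was lower in both strains (-0.04 and -0.23 for Fzd4, below the filter signal, and -0.09 and -0.46 for Fzd6). The target Axin2 had log2 differences of 0.07 and -0.17. The list held 17 tested genes of 34, with 11 higher, 3 lower and a median log2 difference of 0.35 (0.32 in C57BL/6, 0.24 in MRL/MpJ).

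The remaining lower genes were mostly dim. Dscam, a neuronal adhesion molecule, had 212 and 211 untreated and 25.8 and 23.7 on day 60 (log2 difference -2.17, SE 0.39, limma adjusted p = 0.112), and its other probe set did not reach the filter. C130036L24Rik had 139 and 142 untreated and 18 and 20.7 on day 60 and is 1 of the genes that reached the filter only with the untreated arrays. Adra1b, an alpha-adrenergic receptor, had 165 and 194 untreated and 35.3 and 10.8 on day 60, and Fbp2, the muscle form of fructose bisphosphatase, 254 and 320 untreated and 89.7 and 16.2 on day 60. Foxf1, a forkhead factor of mesenchyme, had 194 and 206 untreated and 55.4 and 40.6 on day 60, against 240 and 241 on day 3. Nrgn, Kifc2, Tgif2, Maz, Vmn1r42 and Il9 had untreated signals between 68.7 (Vmn1r42, MRL/MpJ) and 206 (Maz, C57BL/6) and day 60 signals between 10.5 and 63.8. Unc50, a Golgi membrane protein, was brighter, at 568 and 762 untreated and 200.2 and 209 on day 60, but its 2 other probe sets that reached the filter were not lower in both strains. In the lower set, 8 genes reached the filter signal only with the untreated arrays. C130036L24Rik, Nrgn, Kifc2, Tgif2, Maz and Il9 are among them.

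Against the earlier ligated arrays, no gene passed the test; immunoglobulin and fat cell genes were among those higher in both strains. Against day 30, limma called 0 genes (0%; 653 at an unadjusted p under 0.05), and 28 (0.342%) were at least 2-fold higher and 37 (0.451%) lower in both strains. In log2, Jchain differed by 2.48 (SE 0.29, limma adjusted p = 0.154) and Ighm by 2.01 (SE 0.53, limma adjusted p = 0.607). Arfgap3, a Golgi coat regulator, had 16.9 and 23.8 on day 30 and 228 and 231 on day 60, and Nup54, of the nuclear pore, 32.5 and 25.1 and 176 and 215; their untreated signals were 115 and 101, and 153 and 298. Lower than on day 30 were Prss39, Wfdc5, Ifna5, Acpp and Msc, with day 60 signals between 5.5 (Ifna5) and 41.3 (Acpp). Their day 30 signals were between 85.8 (Ifna5, MRL/MpJ) and 290.8 (Acpp, C57BL/6), higher in C57BL/6 for each gene. Prss39, Ifna5, Acpp and Msc reached the filter signal only with the day 30 arrays. Against day 3, limma called 0 genes (0%; 527 at an unadjusted p under 0.05), and 24 (0.293%) were at least 2-fold higher and 38 (0.464%) lower. In log2, Igkv8-30 differed by 2.39 (SE 0.32, limma adjusted p = 0.264), Car3 by 3.07 (SE 0.48, limma adjusted p = 0.287) and Scd1 by 2.05 (SE 0.29, limma adjusted p = 0.264). Lower than on day 3 were Sfrp5, Vsig2, Mastl, Foxf1 and C130036L24Rik, with day 60 signals between 13.8 (Mastl) and 55.4 (Foxf1). Of these, Sfrp5 and Mastl reached the filter signal only with the day 3 arrays. Comparisons of day 60 with each earlier time share the day 60 arrays.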

How the data were processed

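Left ventricle RNA of 8 hearts or pools (4 time points in each of 2 strains) was hybridised to 1 Affymetrix array each. The deposited values are linear signal intensity made by the authors with MAS5, per the submitters' processing notes, and array-wide scaling was part of it, as the near-equal trimmed means show; the genome build was not given in the sources used here. Of 22626 probe sets, 20380 had 1 gene symbol in the platform annotation, 691 several and 1555 none. A gene took the values of its brightest probe set (mean log2 signal over the arrays). Before log2, 28.6 was added to each signal (percentile 20 of the whole table), genes reaching 121 in at least 2 of 8 arrays were kept, and no further normalization was applied. Low signals are therefore compressed towards each other.

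limma 3.58.1 in R 4.3.3 was fitted to all 8 arrays with strain and time point (3 residual degrees of freedom), adjusted by Benjamini-Hochberg over 8195 genes, with a call at an adjusted p under 0.05. Replicate numbers stand for the strain, so the strain block is the pairing. Differences within a strain are 1 array against 1 and have no test. Genes were named by rule: those called, the 15 highest and 15 lowest by the smaller of both strains' differences, up to 4 members of each of 53 lists and those needed to show its members apart, and 5 each way for opposite strains and for days 30 and 3. Genes were marked where they were chosen after their values were seen. Members and lists were chosen with earlier results of these data known. Alternatives covered offset, filter, scaling, probe set choice, the fit and 1 array left out. The fit was tested on simulated data. Promoter sequences came from RefSeq; 37 of 51 named genes had an entry. Figures used matplotlib 3.10.9.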

Additional observations from a re-analysis of the deposited data

Results flagged for a closer look

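Of the 17 genes that differed at least 2-fold in opposite directions in the 2 strains, the 5 largest each way are given; the difference between strains was not tested, since each strain had 1 array per time point. Of those higher in MRL/MpJ, atrial genes had the largest values: the log2 difference in MRL/MpJ minus that in C57BL/6 was 6.48 for Sln, 5.96 for Myl7 and 4.22 for Myl4. Myl4, the atrial essential light chain, had 483 and 759 untreated and 154 and 5213 on day 60, with 1329.7 and 248 on day 3. Lao1, an amino acid oxidase, had 3.47 (199 and 35.5 untreated and 20.2 and 124 on day 60), and Nt5e, the ectonucleotidase CD73, 2.6 (160 and 64.8 untreated and 50.1 and 208 on day 60).

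In the other direction, Frs3, an adaptor of growth factor receptors, had -4.39 (39.6 and 247 untreated and 206 and 16.5 on day 60). Tlr9, the receptor for unmethylated DNA, had -3.23 (8.3 and 184 untreated and 126 and 66.2 on day 60), and Tom1l1, an endosomal adaptor, -3.13 (14.6 and 66.4 untreated and 152 and 16.6 on day 60). Mylpf, a fast skeletal light chain, had -2.93 (34.9 and 38.7 untreated and 210.1 and 4.5 on day 60), and Zdhhc6, a palmitoyltransferase, -2.82 (34 and 198 untreated and 131 and 53.3 on day 60). In these 5 genes all 4 signals were under 250.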

How the results depend on the processing

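Against untreated, the count of called genes was 3. It was 41 with an offset 4 times larger, 1 with an offset 4 times smaller, 0 without a filter (1040 at an unadjusted p under 0.05), 24 with a filter on the mean signal, 5 with arrays scaled to a common median and 75 with an intensity trend. It was 143 with the 4 arrays alone, which leave 1 residual degree of freedom, and 6 with no replicate block (strain left out). Quantile normalization, the mean of a gene's probe sets and a robust fit gave 3. Leaving out 1 array gave 0 to 30. All 3 genes were among the calls wherever at least 3 were made. Against day 30, an offset 4 times larger, the filter on mean signal, the mean of probe sets and no replicate block gave 1 call each, and the other alternatives 0; against day 3 every alternative gave 0. Genes at least 2-fold higher in both strains numbered 77 with the offset 4 times larger and 130 to 192 otherwise. The lower ones numbered 6 with the offset 4 times larger, 57 with it 4 times smaller, 54 without a filter and 19 with the filter on mean signal. Counts in both strains cannot be had with a day 60 or untreated array left out. No called gene changed direction, and the medians of 38 of 53 lists had 1 sign under all 19 alternatives. The cause of the other differences was not tested. Precision is limited by there being 1 array per strain and time point, and by background for signals near 28.6.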

Other observations

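Binding proteins of insulin-like growth factors were higher in both strains. Igfbp6 had 193 and 266 untreated and 651 and 875 on day 60, Igfbp3 71.4 and 32.5 untreated and 147 and 221 on day 60 and Igfbp4 1420.4 and 1436 untreated and 2879 and 3268 on day 60, while the growth factor Igf1 had 216 and 193 untreated and 257 and 637 on day 60. Over that list 10 of 23 genes were higher and 8 lower, with a median log2 difference of 0.06 (0.03 in C57BL/6, 0.21 in MRL/MpJ). In the TGF-beta and BMP list 18 of 34 were higher and 3 lower, with a median log2 difference of 0.31 (0.14 in C57BL/6, 0.62 in MRL/MpJ). Its ligands Tgfb2 (80.3 and 108 untreated and 246 and 292 on day 60), Tgfb3 (212 and 187 untreated and 512 and 772 on day 60) and Bmp4 (110.2 and 115 untreated and 288 and 296 on day 60) were at least 2-fold higher in both strains, whereas Tgfb1 had log2 differences of -0.93 in C57BL/6 and 0.05 in MRL/MpJ. Among S100 proteins, annexins and galectins 15 of 20 were higher, with a median log2 difference of 0.62 (0.55 in C57BL/6, 0.72 in MRL/MpJ), led after Lgals3 by Anxa1 (331 and 271 untreated and 1204 and 1211 on day 60; log2 difference 1.91, SE 0.29, limma adjusted p = 0.084). Cytoskeletal genes had a median log2 difference of 0.36 (0.31 in C57BL/6, 0.57 in MRL/MpJ), with Vim, vimentin, at 2164 and 2809.9 untreated and 7062 and 8157 on day 60. Ribosomal protein genes were higher in 28 of 40, with a median log2 difference of 0.26 (0.44 in C57BL/6, 0.14 in MRL/MpJ).

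Median log2 differences of further lists follow. Cell cycle genes had 0.09 (0.18 in C57BL/6, 0.29 in MRL/MpJ), with Cdk1 at 42.8 and 39.9 untreated and 158 and 115 on day 60. Endoplasmic reticulum stress genes had 0.14 (0.18 in C57BL/6, 0.24 in MRL/MpJ), antioxidant genes 0.02 (-0.06 in C57BL/6, 0.06 in MRL/MpJ) and lysosomal genes 0.17 (0.14 in C57BL/6, 0.17 in MRL/MpJ). Proteasome genes had 0.04 (0.10 in C57BL/6, -0.05 in MRL/MpJ) and cell cycle inhibitors -0.06 (0.02 in C57BL/6, -0.15 in MRL/MpJ). Neurohormonal genes had -0.0035 (0.11 in C57BL/6, -0.14 in MRL/MpJ) and clock genes 0.29 (0.47 in C57BL/6, 0.22 in MRL/MpJ). Genes of the fasting response had 0.27 (0.03 in C57BL/6, 0.35 in MRL/MpJ), where Pdk4 was 3153 and 2324 untreated and 716 and 2364 on day 60. Markers of other tissues were few: red blood cell genes were lower in 5 of 6 tested, with a median log2 difference of -0.57 (-0.46 in C57BL/6, -0.39 in MRL/MpJ), and epicardial genes had a median log2 difference of 0.50 (0.37 in C57BL/6, 0.94 in MRL/MpJ) over 6 genes. Skeletal muscle markers had 0.06 (0.39 in C57BL/6, -0.31 in MRL/MpJ), nerve and glia markers -0.16 (-0.28 in C57BL/6, 0.01 in MRL/MpJ), thyroid, lung and liver genes -0.16 (-0.34 in C57BL/6, 0.32 in MRL/MpJ) and cartilage and bone genes 0.24 (0.36 in C57BL/6, 0.15 in MRL/MpJ).

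Lyz1, a lysozyme listed with lung genes, had 829.8 and 601 untreated and 2545 and 2538 on day 60 (log2 difference 1.81, SE 0.28, limma adjusted p = 0.084); its probe set is of the type (suffix x_at) that can bind the related Lyz2. Kcne4, a potassium channel subunit, and Apoe, the lipid carrier of macrophages, were chosen after their values were seen: Kcne4 had 13.6 and 58.6 untreated and 218 and 385 on day 60 and Apoe 1492 and 1922 untreated and 3944 and 6774 on day 60.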
